A study of Solanum lycopersicum with 8 samples.

Results

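The lipoxygenase pathway turns membrane fatty acids into the green and fresh notes of tomato aroma, and 4 of its genes were described here across leaf and fruit. The genes were LOXB and LOX1.1, which encode lipoxygenases, HPL, which encodes hydroperoxide lyase, and ADH2, which encodes an alcohol dehydrogenase. Their probes were chosen by identity alone, as all non-control probes of an Agilent array whose RefSeq transcript belonged to these genes. This gave 24 of 33750 probes: 6 for LOXB (transcript NM_001247944, also called tomloxB or LOX1.2), 3 for LOX1.1 (NM_001247927, also called loxA or tomloxA), 7 for HPL (NM_001247491, CYP74B) and 8 for ADH2 (NM_001247170). The 4 genes were among 1214 that the array's RefSeq transcripts named.

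The arrays measured total RNA from mature whole leaf and from red ripe whole fruit of 4 tomato (Solanum lycopersicum) accessions, with 1 leaf array and 1 fruit array each. AV came from RTGR in Hyderabad, TM from Kashmir, SK from Chatha and RJ from Rajouri, and the submitters described them as differing in how fruit matures and in carotenoid content. No treatment, genotype or plant age was given for any of them. Single plants and pools are not distinguished in the labels, so the p-values below measure the spread between 4 accessions with 1 array per tissue. That number of arrays limits the precision.

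Lipoxygenases add oxygen to linoleic and linolenic acid and yield fatty acid hydroperoxides. Hydroperoxide lyase cleaves some of these into short aldehydes such as hexanal and hexenal, and alcohol dehydrogenase reduces the aldehydes to the corresponding alcohols. An alcohol acyltransferase can join such alcohols to acetate to form esters. In a competing branch, allene oxide synthase draws on the same hydroperoxides for the synthesis of jasmonates, hormones of wounding and defence. In tomato, ADH2 is known for the balance of aldehydes and alcohols in ripening fruit. Whether LOXB or LOX1.1 supplies hydroperoxide lyase was not tested here.

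A level here is the log2 processed signal minus the 75th percentile of its array, taken over the 3085 probes measured well above background throughout the 8 arrays. Probes hybridise with different strength, so levels were compared between arrays for 1 probe or gene and never between genes. Between 17.2% and 24.4% of the probes were well above background per leaf array, and between 18.9% and 19.9% per fruit array. A signal that was just well above background had a level of -3.80 to -3.23 in leaf and -3.69 to -3.53 in fruit. All 4 leaf arrays lay on 1 slide, the AV and TM fruit arrays on a second slide and the SK and RJ fruit arrays on a further slide, so tissue and slide cannot be told apart.

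The tissue labels were checked against defining genes. All 5 leaf marker genes, such as CAB4, which encodes a chlorophyll-binding protein, were lower in fruit. Of 8 ripe fruit markers, the 6 that could be tested were higher. The 2 not tested were PG2 and MADS-RIN-MADS-MC, an entry that the name RIN also matched and that was well above background on no array. The summed level of the ripe fruit markers was -2.77 to -2.04 in leaf and 4.26 to 6.05 in fruit, and that of the leaf markers was 3.79 to 4.41 in leaf and -1.98 to -1.21 in fruit. One fruit array departed from the others in a defining marker: PG2, the fruit polygalacturonase, had levels of 4.18, 0.90 and 2.36 in AV, SK and RJ fruit but was not well above background in TM fruit (-5.88). Trichome markers (MTS1 and SSTLE1) were well above background on no array, and their summed level was -4.96 to -4.06 in leaf and -4.85 to -4.67 in fruit. Of the seed markers, MAN2 was well above background on no array and LEA14 was measured in both tissues, with a summed level of -2.31 to 1.28 in leaf and -0.49 to -0.01 in fruit.

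ADH2 and LOXB separated the tissues completely: each was bright on every fruit array and not well above background on any leaf array. The fruit signal of LOX1.1 rested on 1 of its 3 probes, and HPL was measured in both tissues by 2 probes that gave unlike differences. Of the 24 probes, 17 were measured well above background in every leaf or in every fruit and were tested with limma, with the accession as a block. Among these 17, 16 were called higher in fruit at an adjusted p under 0.05, none was called lower and 1 was not called; over all 6657 probes tested, 29.1% were called higher and 27.9% lower. By gene, 3 of 4 were called higher and none lower, against 26.1% of 4731 genes and other targets called higher and 27.8% lower. In the same 3 genes every fruit array lay above every leaf array, which held for 27% of all targets. The median difference over the 17 tested probes was 7.47 on the log2 scale, beside 0.08 over all probes tested. All tested probes of LOXB (6), ADH2 (8) and LOX1.1 (1) passed the filter through their fruit signal alone, which favours a difference toward fruit. The counts of calls, the separation of the arrays and the median are therefore no support of their own. The remaining 7 probes, 2 of LOX1.1 and 5 of HPL, were too dim to be tested.

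These calls hold relative to the bulk of each array. When arrays were scaled to the spike-in probes instead, the median difference of all targets moved from 0.03 to -1.28. The split of calls moved from 1233 higher and 1313 lower to 410 higher and 2794 lower. Just 3 spike-in probes, out of 10, had a measured signal on every array, so few probes anchor this scaling. LOXB and ADH2 stayed called higher under that scaling, whereas LOX1.1 and HPL took the opposite sign, as given below. In whole leaf and whole fruit, fewer cells that express a gene and less of its RNA per cell cannot be told apart.

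LOXB encodes a lipoxygenase known from ripening tomato fruit. Averaged over its 6 probes, its level in leaf was -5.52 in AV, -5.89 in TM, -5.37 in SK and -5.73 in RJ, all below the lowest signal that was well above background. In fruit it was 0.34 in AV, -0.50 in TM, 0.48 in SK and 0.45 in RJ. The 3 highest fruit arrays lay within a narrow band, TM fruit lay apart below them, and no fruit array overlapped the leaf arrays. The means were 0.19 ± 0.46 in fruit and -5.63 ± 0.23 in leaf (SD, n = 4), a difference of 5.82 ± 0.24 (SE) on the log2 scale (limma adjusted p = 8.71e-06). Because no leaf array measured the gene, the fold is a bound: taking for each leaf array its limit of measurement, or the LOXB signal where that was higher, LOXB was at least 13.1-fold higher in fruit.

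The LOXB probes differed in size of difference but not in direction. The largest difference was that of probe A_96_P080910, whose fruit levels were 1.99 in AV, 1.25 in TM, 2.11 in SK and 2.16 in RJ. It gave 7.47 ± 0.30 (SE), at least 42.3-fold higher in fruit. The smallest was that of A_96_P154736, with fruit levels of -0.78, -1.49, -0.69 and -0.50 in the same order. It gave 4.92 ± 0.28 (SE), at least 6.32-fold higher. Over the 6 probes, limma adjusted p ranged from 9.49e-07 to 4.41e-06, and the higher the fruit signal, the larger the measured difference, with all leaf signals at background.

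TM fruit had the lowest LOXB signal among fruit on 6 of 6 probes. Probe A_96_P172461 read -0.26 in AV, -1.35 in TM, -0.17 in SK and -0.29 in RJ fruit, and A_96_P174834 read 1.23, 0.39, 1.204 and 1.29. On both probes the other 3 fruits agreed closely while TM was set off from them. The probe with the widest spread was A_96_P237717, at 0.08, -0.86, 0.62 and -0.0037. Here SK fruit was the highest as well as TM the lowest. For the mean of the 6 probes, SK fruit was 1.97-fold above TM fruit, which is a comparison of 2 single arrays with no test. AV fruit shared its slide with TM fruit and lay with SK and RJ.

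LOX1.1 encodes a second fruit lipoxygenase. Its 3 probes did not give 1 answer. Probe A_96_P012631 was well above background on all 4 fruit arrays, at -0.54 in AV, -3.50 in TM, -2.60 in SK and -2.91 in RJ, and on no leaf array, where it lay at -5.64, -6.08, -5.46 and -5.92. The fruit arrays stood above all leaf arrays, with AV fruit far above the other fruits and TM fruit close to the limit of measurement. Its difference was 3.39 ± 0.45 (SE) on the log2 scale (limma adjusted p = 0.000316), and LOX1.1 was at least 2.20-fold higher in fruit by this probe.

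The second LOX1.1 probe, A_96_P168704, was well above background in AV fruit only, with levels of -3.44 in AV, -5.96 in TM, -4.74 in SK and -5.51 in RJ fruit. The third, A_96_P161716, was well above background on no array, and its mean was 0.27 lower in fruit at background level (-5.80 against -5.53), which gives no order. AV fruit was highest on both probes that were measured anywhere. The low place of TM fruit rests on A_96_P012631, since the TM, SK and RJ values of A_96_P168704 were not well above background. By A_96_P012631, AV fruit was 7.75-fold above TM fruit, and its processed signals before scaling were 2849 in AV, 276 in TM, 741 in SK and 616 in RJ fruit.

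Averaged over its 3 probes, LOX1.1 had levels of -3.24 in AV, -5.13 in TM, -4.37 in SK and -4.74 in RJ fruit (mean -4.37 ± 0.81 SD, n = 4) and -5.56, -5.98, -5.37 and -5.79 in leaf (-5.67 ± 0.27 SD, n = 4). All fruit arrays lay above all leaf arrays, although TM fruit did so narrowly. The difference of 1.31 ± 0.31 (SE) passed the threshold (limma adjusted p = 0.0120), and no bound on the fold could be given for the 3-probe mean. Under spike-in scaling it was -0.0044 and was not called, and with the slide of SK and RJ fruit as an added term it was 1.59 with an adjusted p of 0.0510. Over all alternatives the adjusted p ran from 0.000306 to 0.994. The single measured probe kept its call under every alternative that tested it, spike-in scaling included (2.08).

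HPL encodes the hydroperoxide lyase that makes the short aldehydes. Probes A_96_P011916 and A_96_P241714 were measured well above background throughout the 8 arrays, and they did not give the same difference. By A_96_P011916, the levels were -0.36 in AV, 0.11 in TM, -0.55 in SK and -0.52 in RJ leaf, and -0.17, -0.83, -0.12 and -0.71 in fruit. The tissues overlapped, and the highest array was TM leaf while the lowest was TM fruit. The difference was -0.12 ± 0.32 (SE), higher in fruit in 2 of 4 accessions (limma adjusted p = 0.761), and its sign turned under normexp, with the percentile over all probes, in the authors' deposited log2 values and without the TM arrays. Under spike-in scaling this probe was called lower in fruit, at -1.43 (adjusted p = 0.0056, the lowest of a range up to 0.98001).

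By A_96_P241714, HPL lay at -2.44 in AV, -1.77 in TM, -2.605 in SK and -1.55 in RJ leaf, and at -0.71, -1.61, -0.63 and -0.88 in fruit. Fruit was higher than leaf in 4 of 4 accessions, but TM fruit fell just below RJ leaf, so the groups overlapped. The difference was 1.135 ± 0.38 (SE) with a limma adjusted p of 0.0326. That call was lost without the AV arrays (adjusted p = 0.0681), without the SK arrays (0.139), without the RJ arrays (0.0558), without the filter on dim probes (0.0917), with the slide term and under spike-in scaling, where the sign turned (-0.17). Over the alternatives its adjusted p ran from 0.00752 to 0.754.

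The other 5 HPL probes were near background: A_96_P237257 was measured in TM fruit only, A_96_P239143 in TM leaf and SK fruit, and the remaining 3 on no array. Over its 7 probes, HPL averaged -4.12 in AV, -3.13 in TM, -3.95 in SK and -3.28 in RJ leaf (mean -3.62 ± 0.49 SD, n = 4) and -3.00, -3.49, -2.69 and -3.27 in fruit (-3.11 ± 0.35 SD, n = 4). TM and RJ were the higher leaves and AV and SK the higher fruits. The difference of 0.50 ± 0.34 (SE), higher in fruit in 3 of 4 accessions, did not pass the threshold (limma adjusted p = 0.253) and was -0.81 under spike-in scaling. A difference in HPL between the tissues was thus not detectable with these arrays, which does not show that the tissues were alike.

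ADH2 encodes the alcohol dehydrogenase that reduces hexanal and hexenal. All 8 of its probes were measured on every fruit array and on no leaf array. Its level over 8 probes was 3.45 in AV, 3.91 in TM, 3.26 in SK and 3.23 in RJ fruit (mean 3.46 ± 0.31 SD, n = 4), and -5.51, -5.37, -5.32 and -5.06 in leaf (-5.31 ± 0.19 SD, n = 4). The fruit arrays were close to each other and far above every leaf array. The difference was 8.78 ± 0.26 (SE) on the log2 scale (limma adjusted p = 4.15e-06), and the bound against the leaf limit put ADH2 at least 127-fold higher in fruit.

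The 8 ADH2 probes gave differences of 7.71 to 9.49, with limma adjusted p of 7.15e-07 to 1.14e-06 and bounds of at least 42.3-fold to at least 353-fold. The brightest, A_96_P089564, read 5.004 in AV, 5.41 in TM, 4.90 in SK and 4.73 in RJ fruit. Its leaf levels were -5.35, -4.05, -5.16 and -3.37. None of these leaf signals was well above background, although those of TM and RJ leaf were the higher ones. The same order of leaves appeared on A_96_P073234 (-5.36 in AV, -4.28 in TM, -5.12 in SK and -4.10 in RJ) and A_96_P146796 (-5.71, -4.72, -5.43 and -4.27). On A_96_P089554, in contrast, the leaf levels were -5.63, -6.15, -5.49 and -5.87, with TM the lowest. Leaf values at background, as on this probe, have no order between arrays. Before scaling, A_96_P089564 read 218 in AV, 460 in TM, 391 in SK and 612 in RJ leaf. The medians of all probes on these arrays were 224, 153, 387 and 143. The scaled RJ value of -3.37 lay above the lowest level that was well above background on its array (-3.66). Its own spot was not flagged so. Whether ADH2 had a weak signal in TM and RJ leaf was not tested.

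By scaled level, TM fruit was the highest fruit for ADH2 on 8 of 8 probes, the opposite of its place for LOXB and LOX1.1. The clearest case was A_96_P146796, at 4.80 in TM fruit and 4.23, 4.14 and 4.20 in AV, SK and RJ fruit. The span was modest: over the 8 probes TM fruit was 1.60-fold above RJ fruit, again a comparison of single arrays. The top place of TM fruit on all 8 probes held only after scaling. Before scaling it was highest on some of the probes only. The processed signals of A_96_P089564 were 133028 in AV, 132155 in TM, 134293 in SK and 122893 in RJ fruit. On A_96_P089549 AV fruit was highest (44788, against 40291 in TM). On A_96_P146796 TM fruit was highest (86966, against 77644 in AV, 79470 in SK and 84783 in RJ). The TM fruit array was the dimmest of the fruit arrays (median processed signal 61.7, against 92.3 to 102). TM fruit minus the mean of the other 3 fruits was 0.60 and stayed above 0 under normexp background correction and 4 other scalings, at 0.40 to 0.74. No spot of the 24 probes was saturated by the scanner's flag.

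**Figure D1:**
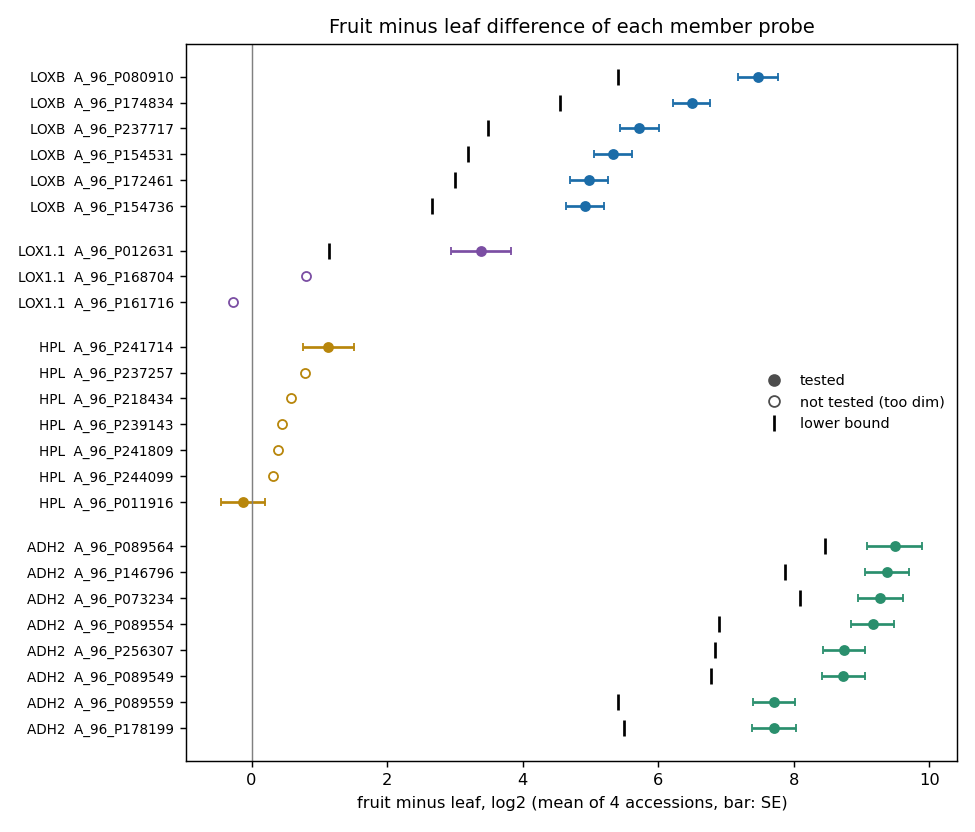
Difference between fruit and leaf for each of the 24 probes on the log2 scale, as the mean over 4 accessions; filled points were tested and carry the SE of the limma fit, open points were too dim to test, and black ticks are the lower bounds for probes not measured in leaf. ADH2 differences lie between 7.71 and 9.49, those of LOXB between 4.92 and 7.47, and the HPL probes lie around 0 to 1.135.

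The sizes of these tissue differences were not ranked between genes. Leaf values of LOXB, LOX1.1 and ADH2 were not well above background, so each of these differences measured mainly how bright the fruit probes were. Of the 6 pairs of genes only comparisons with HPL had a measured leaf level on 1 side, and with 4 accessions a two-sided exact sign-flip permutation test cannot go below p = 0.125.

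By accession, the LOXB difference between fruit and leaf was 5.85 in AV, 5.40 in TM, 5.85 in SK and 6.18 in RJ, and the ADH2 difference was 8.96, 9.28, 8.58 and 8.29. Both genes were higher in fruit in all 4 accessions. These values, and those of LOX1.1 (2.31 in AV and 0.86, 1.00 and 1.05 in TM, SK and RJ), were taken against leaf signals not well above background. No order of the accessions is therefore read from them. HPL, which was measured in leaf, had differences of 1.11 in AV, -0.36 in TM, 1.26 in SK and 0.01 in RJ.

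The differences between accessions did not pass a test. In the limma F test of accession over both tissues, the unadjusted p was 0.218 for LOXB, 0.140 for LOX1.1, 0.928 for HPL and 0.818 for ADH2, and each adjusted p was 1.00. Of all 4731 targets 0 passed, a share of 0%, while 116 had an unadjusted p under 0.05. With 3 residual degrees of freedom and both tissues in 1 term, a shift in a single fruit array adds to the residual spread of this test.

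The order among the fruit arrays was therefore described by values. TM fruit minus the mean of the other 3 fruits was -0.92 for LOXB, -1.01 for LOX1.1, -0.51 for HPL and 0.60 for ADH2 (log2). AV fruit minus the other 3 was 0.19, 1.503, 0.15 and -0.02 for the same genes. By scaled level, TM fruit was thus low in both lipoxygenases and high in ADH2, while AV fruit stood out in LOX1.1 alone among the 4 genes. For LOXB the TM value ran from -1.12 to -0.77 under the other scalings and background, and for probe A_96_P012631 of LOX1.1 the AV value ran from 2.04 to 2.58.

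Ripening genes moved with some of these differences. RIN, a MADS-box regulator of ripening, was lowest in TM fruit and highest in AV fruit on 8 of 8 probes, with levels of 1.32 in AV, -1.37 in TM, -0.22 in SK and 0.15 in RJ. Psy1, the fruit phytoene synthase, read 2.17 in AV, 0.96 in TM, 1.38 in SK and 1.55 in RJ fruit. Together with PG2, these share the low place of TM fruit with LOXB and LOX1.1. The other 4 of the 7 ripe fruit markers measured in fruit did not: 2A11 (6 of 6 probes) and hdc (18 of 18) were lowest in SK fruit, and E8 (2 of 2) and EXP1 (2 of 2) in RJ fruit. EXP1, a fruit expansin, was highest in TM fruit (0.19, against -0.23 in AV, -0.23 in SK and -0.68 in RJ), as was ADH2, and AV fruit was highest in the other 6 markers. Whether a difference in ripening stage between the fruits had a part in the lipoxygenase values was not tested.

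**Figure D2:**
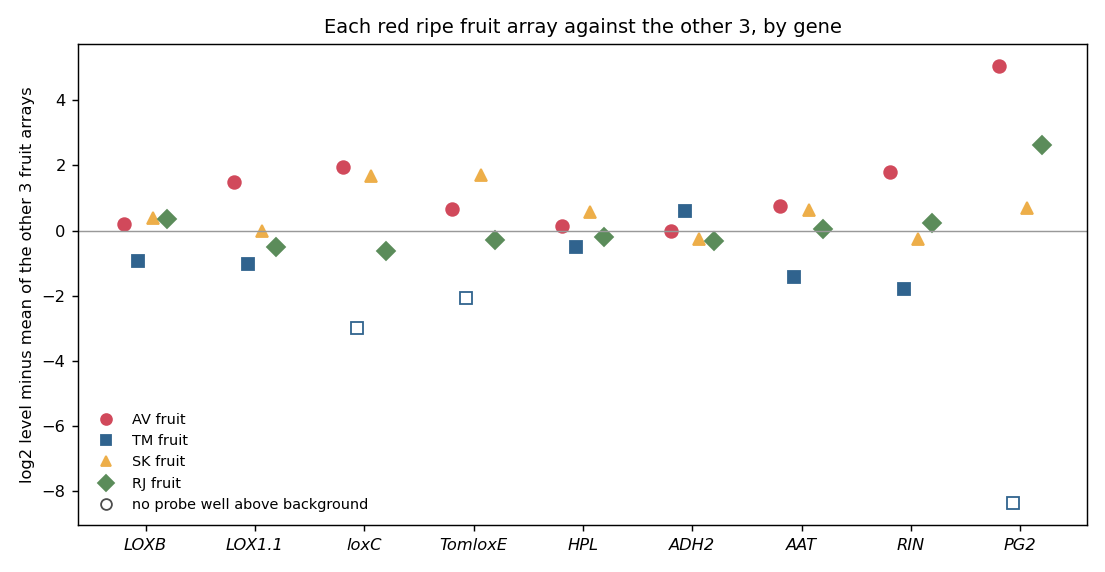
Level of each red ripe fruit array minus the mean of the other 3 fruit arrays (log2) for lipoxygenases, HPL, ADH2, AAT and the ripening genes RIN and PG2, with open symbols where no probe of the gene was well above background on that array. TM fruit (squares) lies below 0 for every gene shown but ADH2, at -0.92 for LOXB and 0.60 for ADH2, and AV fruit (circles) is highest for LOX1.1, loxC, AAT, RIN and PG2, although under quantile normalization SK fruit was highest for AAT (0.78, against 0.56 in AV). The other ripe fruit markers are not shown. TM fruit was the lowest in Psy1 but not in 2A11, hdc, E8 or EXP1, and was at 0.57 for EXP1.

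A wider list of lipoxygenase, aroma and jasmonate synthesis genes, chosen with earlier results known, had 16 genes on the array, of which 9 could be tested. Of the 9, 4 were called higher in fruit (LOXB, LOX1.1, ADH2 and AAT), 2 lower (OPR1 and OPR3) and 3 were not called (HPL, ADH3 and AOS2), beside 26.1% higher and 27.8% lower over all targets. The 4 genes called higher were measured in fruit only and the 2 called lower in leaf only, so they passed the filter through the tissue in which they were high. The median difference of the 9 was 0.55, beside 0.03 over all targets. The other 7 (loxC, TomloxE, AOS, AOC, opr2, DES and Acx1A) were not well above background on all arrays of either tissue.

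AAT encodes an alcohol acyltransferase, which uses the alcohols that ADH2 forms. Its level over 4 probes was 1.498 in AV, -0.12 in TM, 1.41 in SK and 0.97 in RJ fruit, and -5.27, -5.73, -5.15 and -5.52 in leaf, where no array measured it. Fruit and leaf did not overlap, and TM fruit was lowest on 4 of 4 probes. The difference was 6.36 ± 0.27 (SE; limma adjusted p = 1.04e-05), at least 22.1-fold higher in fruit. AV fruit was 3.08-fold above TM fruit. Of the step before and the step after the alcohols, ADH2 was highest and AAT lowest in the same TM fruit by scaled level.

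Both other lipoxygenases on the list, loxC and TomloxE, had a wider spread among fruits (SD of 1.72 and 1.21, n = 4) than LOXB (0.46) and LOX1.1 (0.81), which was not tested. Their TM fruit values lay at background level. Under normexp background correction the SDs were 0.86 and 0.53, against 0.44 for LOXB and 0.36 for LOX1.1, so the size of this contrast depended on the treatment of dim signals. The gene loxC, whose product in tomato is a plastid lipoxygenase that feeds hydroperoxide lyase, had levels of -1.99 in AV, -5.67 in TM, -2.18 in SK and -3.91 in RJ fruit. It was well above background in AV, SK and RJ fruit but not in TM fruit or in any leaf (-5.51 to -5.27), so it was not tested. TM fruit was the lowest on 3 of 3 probes, although on A_96_P034881 and A_96_P088554 RJ fruit was not well above background either. TM fruit minus the other fruits was -2.97, with -3.17 to -1.51 under the other scalings and background. TomloxE, a lipoxygenase gene that RefSeq places on the same chromosome as LOXB with 2 protein-coding genes between them, read -3.76 in AV, -5.81 in TM, -2.97 in SK and -4.46 in RJ fruit. It too was measured in AV, SK and RJ fruit and not in TM fruit or leaf (-5.97 to -5.12). All 4 lipoxygenases on this list were thus lowest in TM fruit, except that under normexp background correction SK fruit was lower than TM fruit for the LOX1.1 mean (-0.50 and -0.30 against the other fruits). Probes were assigned by transcript only, and whether a probe also binds the RNA of a related lipoxygenase was not tested.

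**Figure D3:**
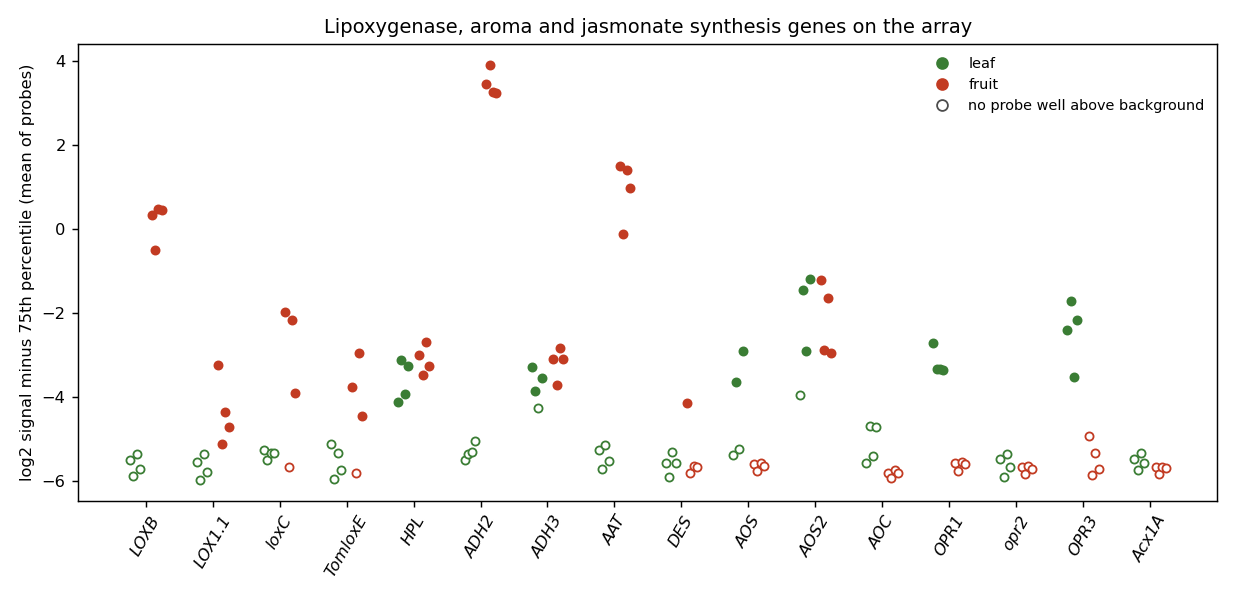
Level (log2 signal minus the 75th percentile of the array, mean of a gene's probes) of the 16 genes of the lipoxygenase, aroma and jasmonate synthesis list on the 4 leaf arrays (green) and 4 fruit arrays (red), with open points where no probe was well above background. ADH2, AAT and LOXB are measured in fruit only, OPR1 and OPR3 in leaf only, and HPL, ADH3 and AOS2 in both tissues.

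Genes of the jasmonate branch, which competes with HPL for hydroperoxides, did not follow LOXB and ADH2. OPR3, the reductase of jasmonate synthesis, had levels of -2.42 in AV, -1.72 in TM, -3.525 in SK and -2.16 in RJ leaf and -4.93, -5.87, -5.34 and -5.73 in fruit, where it was not measured. It was lower in fruit by -3.01 ± 0.41 (SE; limma adjusted p = 0.00103), at least 2.17-fold. This mean includes A_96_P131677, too dim to be tested (-2.15). The tested probe A_96_P013051 alone gave -3.87, at least 4.62-fold. OPR1, a related reductase, read -2.73, -3.35, -3.33 and -3.37 in leaf and -5.59, -5.76, -5.57 and -5.61 in fruit. Its difference was -2.44 ± 0.23 (SE; limma adjusted p = 0.000191), at least 1.30-fold lower in fruit. This mean includes A_96_P264707, which was well above background on no array (-0.24). The tested OPR1 probe A_96_P000071 alone gave -4.64, at least 5.90-fold. Under normexp background correction OPR1 was not called (adjusted p = 0.0579, the highest of a range from 1.35e-14).

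AOS2, an allene oxide synthase, showed opposite orders in the tissues. Its single probe read -3.96 in AV, -1.45 in TM, -2.90 in SK and -1.21 in RJ leaf, and -1.22, -2.88, -1.64 and -2.97 in fruit. TM and RJ were the higher leaves but the lower fruits, and the AV leaf value was not well above background. The difference of 0.21 ± 0.76 (SE) did not pass the threshold (limma adjusted p = 0.836). Under spike-in scaling AOS2 was called lower in fruit, at -1.10 (adjusted p = 0.0299, the lowest of a range up to 0.912). The mean of the HPL probes had the same high leaves: TM and RJ were also higher than AV and SK. Of its tested probes A_96_P241714 showed this order. The brightest, A_96_P011916, did not, with RJ leaf (-0.52) below AV leaf (-0.36).

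AOS, a further allene oxide synthase, was measured in TM leaf (-3.64) and RJ leaf (-2.92) but not in AV leaf (-5.40), SK leaf (-5.25) or any fruit (-5.78 to -5.59). DES, the divinyl ether synthase of the same enzyme family as HPL, was measured in AV fruit only (-4.15). AOC, opr2 and Acx1A were well above background on no array. ADH3, a class III alcohol dehydrogenase also listed as GSNOR, differed from ADH2 in being measured in both tissues. It read -3.30 in AV, -3.86 in TM, -4.26 in SK and -3.56 in RJ leaf and -3.11, -3.72, -2.83 and -3.11 in fruit. Its difference was 0.55 ± 0.29 (SE), higher in fruit in 4 of 4 accessions with overlapping groups (limma adjusted p = 0.153), and it took the opposite sign under spike-in scaling (-0.76).

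Genes of other aroma routes and of the jasmonate response were counted as well, too few of them tested to set against the 26.1% higher and 27.8% lower over all targets. Of 8 aroma genes on the array 2 could be tested: CCD1B, a carotenoid cleavage dioxygenase, was higher in fruit (1.28 ± 0.31 SE; limma adjusted p = 0.0128), and PAR2, a phenylacetaldehyde reductase, was lower (-3.12 ± 0.26 SE; adjusted p = 0.000101). Of 7 jasmonate response genes 3 could be tested: JA2, a NAC transcription factor, was higher in fruit (2.93 ± 0.28 SE; limma adjusted p = 0.000206). COI1, the jasmonate receptor (0.14 ± 0.34 SE), and LAPA2, a leucine aminopeptidase (0.31 ± 0.21 SE), did not pass the threshold. JAZ2, a jasmonate response repressor, was measured only in TM leaf (-2.59) and RJ leaf (-2.35), the leaves in which AOS was measured. These were also the higher leaves for LEA14 (1.27 and 1.15, against -2.48 in AV and -0.29 in SK). The same held for AADC1A of the aroma list (-2.68 and -2.31, against -5.37 and -4.39), so this order was not particular to the jasmonate genes. OPR1 and COI1 were highest in AV leaf.

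The named genes whose centred profiles over the 8 arrays lay nearest to each of the 4 genes were found among 367 by the root mean square difference, which is a description over arrays of 2 tissues. For LOXB these were HSP17-6, a small heat shock protein gene (0.30 log2 units), AAT (0.35) and matriochka (0.43). For ADH2 they were 2A11, a fruit-specific gene (0.76), matriochka (1.32) and AAT (1.38), all farther away than the neighbours of LOXB. For LOX1.1 they were DDTFR18 (0.34), TFT7 (0.39), which encodes a 14-3-3 protein, and UCP (0.40), and for HPL TPx1 (0.24), ICDH1 (0.26) and EIL4 (0.27). AAT was the only gene of the pathway list among these neighbours, much closer to LOXB than to ADH2. None of the genes LOXB, ADH2 and AAT was measured in leaf, so their distances depend mainly on how bright the fruit probes were. No link within the pathway is read from them.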

How the data were processed

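Leaf and fruit RNA of 4 accessions was measured as Cy3-labelled cRNA on 1-colour Agilent arrays of 45020 spots, 35100 of them non-control spots for 33750 probes. Per the file headers, the authors extracted spots with Agilent Feature Extraction 10.7.3.1, and the deposited intensity used here is its background-subtracted processed signal, with flags (other than intensities) for spots well above background and saturated, also as deposited. The authors' deposited log2 table differed from log2 of this signal only by a constant per array and a shift per probe (100% of differences between arrays within 0.02), with column medians of -0.07 to 0, and served as an alternative. It held 247 further columns that match no sample and were not used. Transcripts were matched to RefSeq gene names (assembly SLM_r2.1) for 2936 of 3132 probes.

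Log2 signals were scaled by each array's 75th percentile, spots of a probe and probes of a gene were averaged, and probes measured above background in every leaf or every fruit were tested in R 4.3.3 with limma 3.58.1 (lmFit, eBayes, Benjamini-Hochberg over everything tested). The fit held tissue and accession as a block, because each accession gave both tissues; deviations of same-accession arrays correlated at -0.24 to 0.05 over 3085 probes. The fit was tested on simulated data. The 4 genes and all lists were chosen with earlier results of these data known. All 4 genes, all tested list genes and the 3 nearest profiles per gene were named. A promoter motif search that had been planned was not run, because sequences were not used here.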

Additional observations from a re-analysis of the deposited data

Results flagged for a closer look

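Among 36 sets of 4 arrays (genes and probes of the pathway within 1 tissue), 5 held an array that lay apart from the other 3 by Dixon's test, where chance gives about 1 in 20. LOXB in TM fruit was -0.50, below 0.34 to 0.48 in the other fruits. Its probe A_96_P174834 was 0.39 in TM fruit, below 1.204 to 1.29, and its probe A_96_P172461 was -1.35 in TM fruit, below -0.29 to -0.17. Probe A_96_P146796 of ADH2 was 4.80 in TM fruit, above 4.14 to 4.23. OPR1 in AV leaf was -2.73, above -3.37 to -3.33 in the other leaves. The first 3 of these share spots, so they are not independent.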

How the results depend on the processing

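LOXB and ADH2 were called higher in fruit under every alternative that tested them, with differences of 4.51 to 7.47 and 7.47 to 9.49, and AAT and OPR3 also kept their calls. The lowest and highest differences when both arrays of 1 accession were left out were 5.70 and 5.96 for LOXB, 0.97 and 1.46 for LOX1.1, 0.25 and 0.79 for HPL, and 8.61 and 8.94 for ADH2. Under spike-in scaling the differences were -0.0044 for LOX1.1, -0.81 for HPL, -1.10 for AOS2 (called lower), -0.76 for ADH3 and -0.17 for probe A_96_P241714 of HPL; 410 targets were higher and 2794 lower, 806 probes higher and 3681 lower, 1 HPL probe (A_96_P011916, -1.43) was lower, and 48 targets passed the accession F test, against 0. Probe A_96_P011916 of HPL turned to 0.10 under normexp, 0.14 with the percentile over all probes, 0.0125 in the deposited log2 values, and ran from -0.31 to 0.15 (without TM) with 1 accession left out; HPL by its brightest probe was -0.12. Under normexp 1 gene of the pathway list was lower. ADH3 was called higher with the percentile over all probes and with quantile normalization. AOS2 was -0.64 without AV and -0.15 without SK, in a range up to 0.86. Without a filter on dim probes, 2395 targets and 3347 probes were lower. Restricted to probes measured on all 8 arrays, which drops LOXB, LOX1.1 and ADH2, 355 targets were higher and 352 lower, 475 probes higher and 466 lower, 1 probe of the 24 was higher, and 0 list genes were higher or lower. With the slide of SK and RJ fruit as a term, LOX1.1 was 1.59 (adjusted p = 0.0510), and 579 targets and 1030 probes were higher. The accession F test called 0 to 9 targets when single arrays were left out, 9 of them without AV fruit. The cause of these changes was not tested where fewer probes or arrays do not give it.

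Without the accession block the differences were the same and no call of the 4 genes changed (LOX1.1 adjusted p = 0.0144, HPL adjusted p = 0.158); 1363 targets were higher and 1418 lower. The single fruit arrays set against the other fruits, an alternative chosen after seeing the data, kept their direction for LOXB, ADH2, AAT and loxC in TM fruit and for the LOX1.1 probe in AV fruit under all 5 other scalings and background. Signal over background limits LOX1.1, loxC, TomloxE and 5 HPL probes, and the leaf values of LOXB, LOX1.1 and ADH2 are not well above background.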
